A study of Mus musculus with 8 samples.

Results

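The 36 genes described here encode aminoacyl-tRNA synthetases, 20 that work in the cytosol and 16 that work in mitochondria, whose symbols end in 2. They were taken by name, with no measured value in the rule, and all 36 were among the 48709 gene identifiers counted in the series. All 36 also passed the filter on low counts, so none was lost from the tests. Murine hematopoietic stem and progenitor cells of strain C57Bl/6J were isolated as Lin-Sca1+cKit+ cells. From 10000 seeded cells per well they were grown for 7 days in serum-free medium with 100 ng/ml SCF, 2 ng/ml Flt3 ligand and penicillin-streptomycin, part of the medium being changed after 3 or 4 days. The 4 control wells had no further addition, and the other 4 had 100 µM malonyl-CoA, the carbon donor of fatty acid synthesis; total RNA of the progeny was sequenced. In both groups the libraries carry the numbers 1, 3, 4 and 5. They are called biological replicates, but what separates them is not given, so the p-values measure the spread between these libraries, which may be technical. The cultures are progeny of sorted cells and not the sorted cells themselves.

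Each synthetase joins an amino acid to the tRNAs that read its codons, and so supplies the ribosome with charged tRNA. Cytosolic translation and the small mitochondrial translation system mostly use separate nuclear genes, while Gars and Kars serve both compartments. Class I and class II synthetases have unrelated catalytic folds, and several cytosolic enzymes sit in a multi-synthetase complex held together by the scaffold proteins Aimp1, Aimp2 and Eef1e1. When uncharged tRNA accumulates, the kinase Gcn2 phosphorylates eIF2 alpha and the transcription factor ATF4 is translated; many cytosolic synthetase genes are listed among its targets, and ATF4 pairs with C/EBP proteins on a composite element.

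The composite element, searched as TGATGNAAN on both strands, is shown first because the cytosolic genes differ in whether they carry it. RefSeq promoter windows of 300 bases, from 250 before to 50 after the start site on build GRCm38.p6, were used for 27 members. The members without one were Cars, Hars, Lars, Nars, Rars, Vars, Wars, Hars2 and Pars2. The motif lay in the windows of Aars, Gars, Iars, Tars and Yars, 5 of 13 cytosolic genes, and in 0 of 14 mitochondrial genes. Over all 32851 promoter windows of that length it lay in 1299 (3.95%). The 145 bases from 120 before to 24 after the start are printed 5′ to 3′ on the gene's own strand, with the match in capitals. The capitals read as the reverse complement of the motif in Aars, Gars, Iars and Tars, and as the motif itself in Yars.
Aars (chr8:111033722-111033866, plus strand): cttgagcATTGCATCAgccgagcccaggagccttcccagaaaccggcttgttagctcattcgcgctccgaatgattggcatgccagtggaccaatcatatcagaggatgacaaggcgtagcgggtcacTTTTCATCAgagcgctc
Gars (chr6:55037881-55038025, plus strand): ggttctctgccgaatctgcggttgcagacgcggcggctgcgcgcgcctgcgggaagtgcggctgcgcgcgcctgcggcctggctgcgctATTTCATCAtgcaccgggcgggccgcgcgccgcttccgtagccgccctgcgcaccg
Iars (chr13:49682010-49682154, plus strand): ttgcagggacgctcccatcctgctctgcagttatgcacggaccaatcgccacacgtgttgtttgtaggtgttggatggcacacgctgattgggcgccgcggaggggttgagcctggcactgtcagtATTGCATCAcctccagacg
Tars (chr15:11399634-11399778, minus strand): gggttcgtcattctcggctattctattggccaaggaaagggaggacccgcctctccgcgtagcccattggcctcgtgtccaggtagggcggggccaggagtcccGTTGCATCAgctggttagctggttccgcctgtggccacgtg
Yars (chr4:129189783-129189927, plus strand): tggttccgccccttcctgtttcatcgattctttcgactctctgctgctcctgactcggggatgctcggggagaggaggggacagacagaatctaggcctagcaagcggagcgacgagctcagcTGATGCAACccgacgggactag
With the start site at 0, Aars carried 2 matches, TGATGCAAT at -113 to -105 and TGATGAAAA at 8 to 16. Gars had TGATGAAAT at -31 to -23, Iars TGATGCAAT at 6 to 14, Tars TGATGCAAC at -16 to -8 and Yars TGATGCAAC at 3 to 11. All 5 belong to the 12 cytosolic genes often listed as ATF4 targets (Aars, Cars, Eprs, Gars, Iars, Lars, Mars, Nars, Sars, Tars, Wars and Yars). Such lists rest in part on these sites, so the overlap is no independent observation. The listed genes Eprs, Mars and Sars had a window without a match, as did all 5 of the other cytosolic genes with a window. The interferon-stimulated element was searched on both strands as GAAA, any 2 bases and GAAA because Wars is a known interferon-induced gene. Wars itself had no window and could not be searched. Among the 27 members with a window the element lay only in that of Qars, as GAAAGGGAAA at -199 to -190. It lay in 1131 of all windows (3.44%). A match is a string of letters and not evidence of binding.

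The libraries held between 17492085 and 22079844 gene counts, and no member fell below 149 counts in any library. Levels are given as CPM, counts divided by library size and scaled by TMM, the trimmed-mean factors of edgeR. Malonyl-CoA 4 stood apart on the first principal component of all genes, at 63.3, with control 4 next at 25.3. The libraries also differed with base composition: the rank correlation of a gene's GC share with its deviation from the mean of all libraries ran from -0.67 in control 5 to 0.44 in malonyl-CoA 1. Over the 36 members alone it was -0.82 in control 5, 0.71 in malonyl-CoA 1 and 0.58 in control 4. These are correlations across genes within a library, given as descriptions. Values after a correction of each library for GC and length are given beside the genes described in full that it moved by more than 1.5 times.

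**Figure D1:**
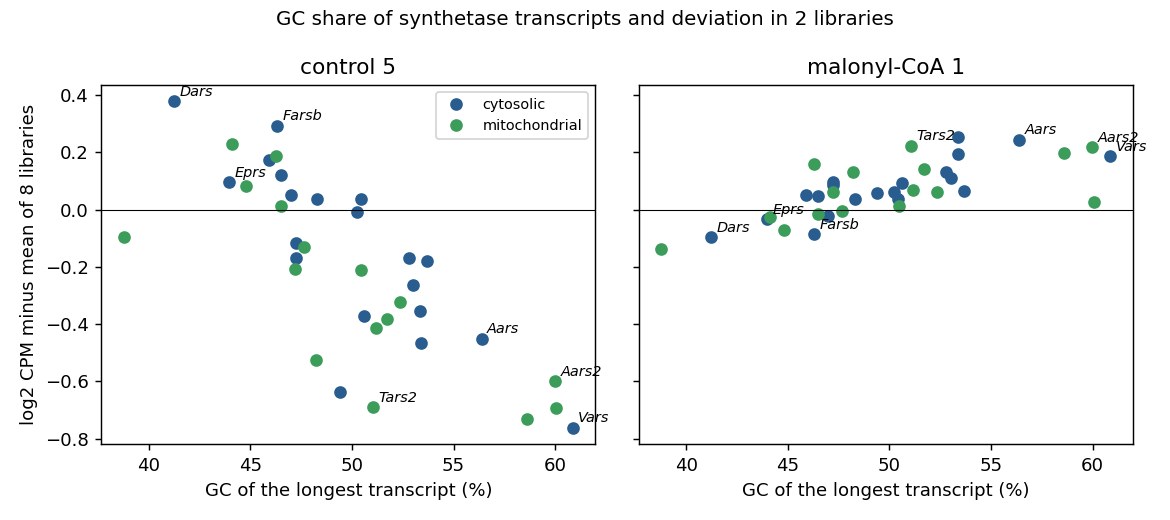
GC share of the longest transcript of each synthetase gene (x axis, %) against its log2 CPM minus its mean over the 8 libraries (y axis), in control 5 and malonyl-CoA 1; blue points are cytosolic and green points mitochondrial genes. GC-rich members such as Vars, Aars and Aars2 lie low in control 5 and high in malonyl-CoA 1, and GC-poor Dars does the opposite (rank correlations -0.82 and 0.71).

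The progenitor label was checked against marker genes. All 9 progenitor markers passed the filter, with Kit at 204 to 320 CPM, Flt3 at 164 to 217 CPM and Cd34 at 430 to 643 CPM over the 8 libraries. The stem cell genes were low, with Hlf at 7.72 to 14.2 CPM, Procr at 0.0932 to 9.58 CPM and Mecom at 0.419 to 0.849 CPM. The summed level of the 9 was 1283 to 1422 CPM in controls and 1140 to 1203 CPM with malonyl-CoA, without overlap. Singly, 2 of the 9, Cd34 and Hlf, lay below all controls, against 2.93% of all genes. Cd34 stood at 545 to 643 CPM in controls and 430 to 476 CPM with malonyl-CoA, while Kit, Flt3 and Cd48 overlapped. Of the 9, 6 had a negative log2 fold change, Cd34, Cd48 and Kit among them (-0.40, -0.27 and -0.15), and Ly6a (0.94), Procr (1.14) and Mecom (0.21) a positive one. The 11 granulocyte markers summed to 13725 to 21536 CPM in controls and 13789 to 17607 CPM with malonyl-CoA, and all 11 had a negative log2 fold change, with a median of -0.56. Monocyte markers summed to 3405 to 4861 and 3739 to 4724 CPM, with overlap. Of these 9 markers, 6 had a positive and 3 a negative log2 fold change, with a median of 0.055. Marco, at 1.43 to 2.70 CPM in controls and 5.84 to 9.42 CPM with malonyl-CoA, had 1.89 (edgeR adjusted p = 0.146). That was the lowest adjusted p of all tested genes. Csf1r (0.52) was also higher in every malonyl-CoA library than in any control. Mast cell markers summed to 623 to 851 and 532 to 613 CPM. The 4 megakaryocyte markers were all expressed and summed to 605 to 765 and 501 to 749 CPM. Of the erythroid list 3 of 6 passed the filter, with Epor at 2.54 to 4.32 CPM, while Alas2 was at 0 in all 8 libraries. Of the lymphoid list 2 of 5 passed, Il7r at 44.2 to 73.4 CPM and Dntt at 35.7 to 55.2 CPM, while the T cell gene Cd3e was at 0 in all 8. Of the stroma list 2 of 4 passed, Pdgfrb at 28.0 to 39.7 CPM and Cdh5 at 4.96 to 8.45 CPM, while Col3a1 was at 0 in all 8. In bulk RNA, fewer cells of a type and less RNA per cell cannot be told apart. What part this mixture has in the synthetase values below was not tested.

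Cytosolic synthetase genes were expressed far above the mitochondrial ones in both groups. Per kilobase of exon, the mean over the 8 libraries ran from 13.7 CPM (Eprs) to 163 CPM (Nars) in the cytosolic group, with a median of 46.7 CPM per kilobase. The mitochondrial group ran from 1.27 (Lars2) to 16.8 (Rars2), with a median of 4.37 CPM per kilobase. Of the 20 cytosolic genes, 18 lay above Rars2, and the exceptions were Cars at 15.1 and Eprs at 13.7 CPM per kilobase. The merged exons of Eprs span 18102 bases. Before division by length its means were 211 CPM in controls and 287 CPM with malonyl-CoA, against a cytosolic median of 221 CPM.

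At the top, Nars, which charges asparagine tRNA, ranged from 143 to 179 CPM per kilobase over the libraries. Gars, which charges glycine tRNA for both compartments, ranged from 143 to 181, so the order of these neighbours is not resolved. Dars, the aspartate enzyme, followed at 88.2 CPM per kilobase with a range of 59.7 to 113, below every Nars and Gars value. In the mitochondrial group, Rars2 (arginine) at 15.3 to 19.6 CPM per kilobase lay above Iars2 (isoleucine) at 9.59 to 13.3 in every library. Iars2 overlapped Yars2 (tyrosine), at 9.67 to 12.1. Lars2 (leucine) ranged from 0.919 to 1.99 CPM per kilobase.

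The 13 amino acids with both a cytosolic and a mitochondrial member showed the same order within each library. The cytosolic gene was higher per kilobase in all 8 libraries for all 13. The median ratio was smallest for tyrosine, with Yars 3.01 times Yars2 (2.26 to 3.45 over the libraries), and arginine, with Rars 3.36 times Rars2 (2.92 to 3.89). It was largest for asparagine, with Nars 51.9 times Nars2 (39.4 to 62.3), followed by leucine at 37.3 (25.9 to 50.1) and methionine at 23.1 (17.3 to 29.4). A ratio of merged exon lengths ignores which isoforms the cells used.

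**Figure D2:**
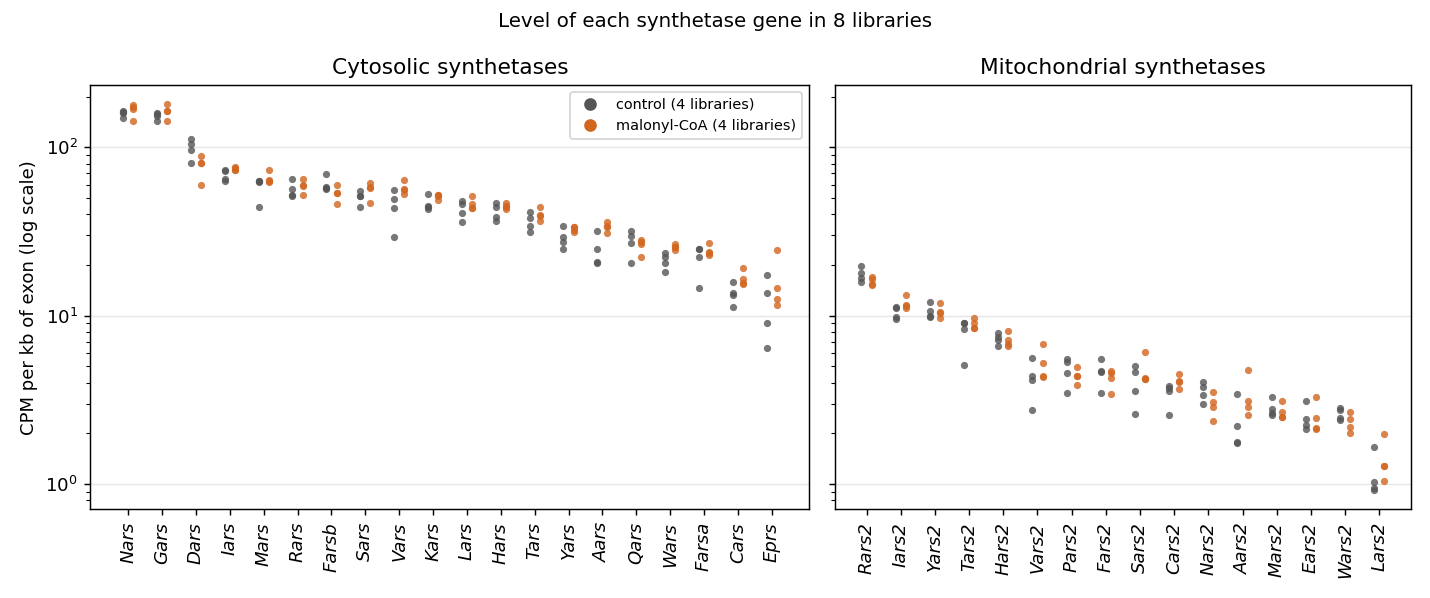
CPM per kilobase of exon (y axis, log scale) of the 20 cytosolic and 16 mitochondrial synthetase genes, each point being a library, grey for control and orange for malonyl-CoA (4 libraries each). Nars and Gars overlap at the top (143 to 181 CPM per kilobase), 18 cytosolic genes have a mean above that of Rars2, and the points of the groups overlap for every gene but Wars.

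The comparison of malonyl-CoA with control cultures called no synthetase gene. edgeR's quasi-likelihood test with Benjamini-Hochberg adjustment called 0 of 36 members and 0 of all 12696 genes tested (0%) at an adjusted p under 0.05. Without adjustment, 3 members were higher (Aars, Cars and Wars) and 1 was lower (Dars) at p under 0.05. Of all genes 690 were higher (5.43%) and 520 lower (4.1%) by that rule, 1210 in all (9.53%). The share among the 36 members is thus near that of all genes. The members at an unadjusted p under 0.05 were all cytosolic, 3 higher and 1 lower of 20, against 0 of 16 mitochondrial genes. The cytosolic share alone is thus above that of all genes, on a small count. With DESeq2, 82 of 13871 genes were called (0.591%), none of them a member; limma-voom called 0 members. Adding a block for the library number to the edgeR fit gave 172 called genes (1.35%), again without a member.

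The sign of the fold change was counted by compartment. Of the cytosolic genes 17 had a positive and 3 (Dars, Farsb and Qars) a negative log2 fold change, with a median of 0.14 and a range from -0.34 to 0.46. Of the mitochondrial genes 8 were positive and 8 negative, with a median of 0.011 and a range from -0.26 to 0.53. All tested genes had a median of 0.023, with 6778 positive and 5918 negative and an interquartile range from -0.15 to 0.25. The genes of a group share libraries, so these counts are descriptions. Over the 23 alternatives computed, 16 to 18 cytosolic genes and 5 to 11 mitochondrial genes were positive.

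**Figure D3:**
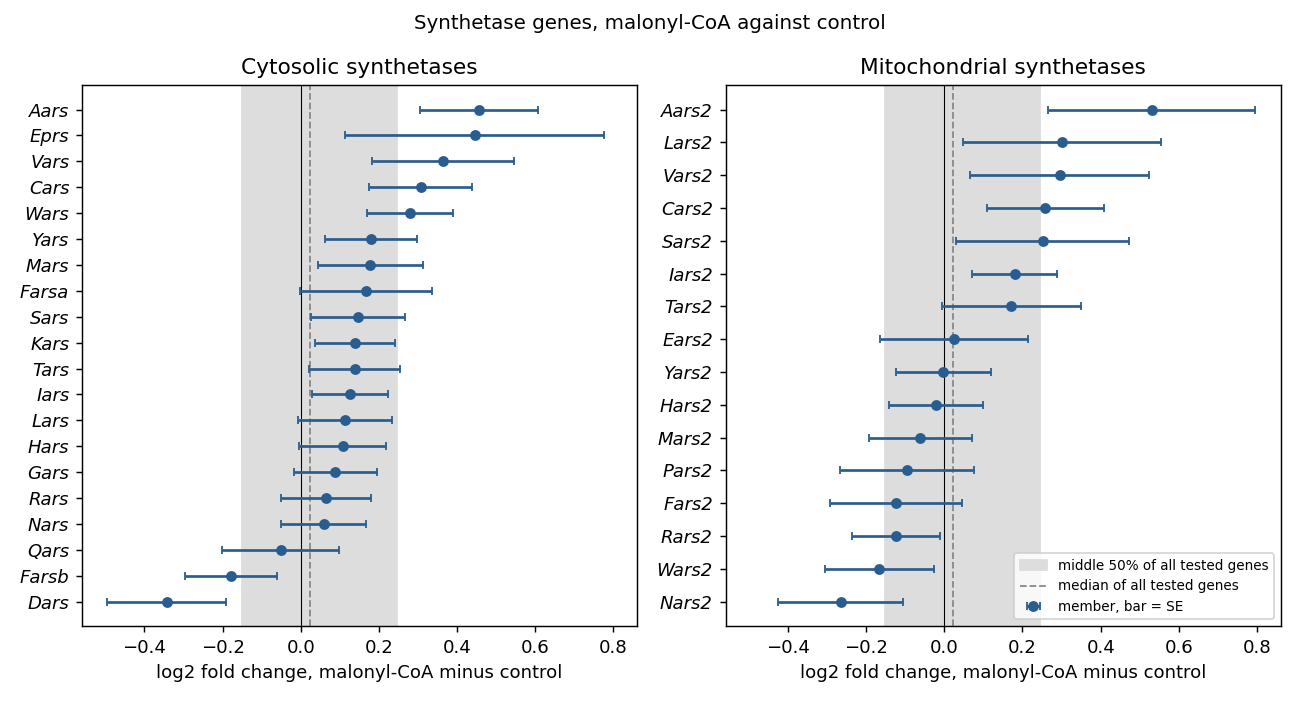
Log2 fold change, malonyl-CoA minus control, of each synthetase gene (points) with its SE (bars); the grey band is the interquartile range of all 12696 tested genes and the dashed line their median of 0.023. Most cytosolic genes lie right of 0, from Dars at -0.34 to Aars at 0.46, while the mitochondrial genes spread evenly from Nars2 at -0.26 to Aars2 at 0.53; no gene was called.

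Wars, the tryptophan enzyme on chr12:108860030-108894174, was the member whose groups did not overlap. It stood at 70.7, 76.6, 81.3 and 62.5 CPM in controls 1, 3, 4 and 5 and at 91.4, 87.9, 85.1 and 88.8 CPM in malonyl-CoA 1, 3, 4 and 5. Every malonyl-CoA library was above every control, as for 408 of all genes (3.21%) in that direction, but only narrowly so for control 4 and malonyl-CoA 4. No member lay below all controls, as 372 of all genes (2.93%) did, and 780 genes (6.14%) showed no overlap in either direction. The mean was 72.8 ± 8.09 CPM (SD, n = 4) in controls and 88.3 ± 2.62 CPM with malonyl-CoA. The log2 fold change came to 0.28 ± 0.11 (SE) at an edgeR adjusted p of 0.507. Its mitochondrial counterpart Wars2 stood at 16.3, 16.8, 14.3 and 14.7 CPM in controls and 14.5, 12.9, 11.97 and 16.02 CPM with malonyl-CoA, with overlapping groups and a log2 fold change of -0.17.

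Aars, the alanine enzyme on chr8:111033144-111057664, had the largest cytosolic fold change. It stood at 191, 232, 296 and 194 CPM in the controls and at 314, 317, 335 and 287 CPM with malonyl-CoA. The groups overlapped, since control 4 exceeded malonyl-CoA 5. The means were 228 ± 49.0 CPM and 313 ± 19.9 CPM (SD, n = 4), and the log2 fold change was 0.46 with an SE of 0.15 (edgeR adjusted p = 0.448). Its transcript is GC-rich (56.4%), and after a correction of each library for GC and length the log2 fold change was 0.19. Exons of Aars share 1326 bases, 14.3% of its exon length, with Exosc6 on the same strand, so reads there may be lost to it.

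Mitochondrial alanine is served by Aars2 on chr17:45506841-45520843, which stood at 8.50, 10.6, 16.4 and 8.40 CPM in controls and 14.8, 13.7, 22.6 and 12.2 CPM with malonyl-CoA. Both libraries numbered 4 were the highest of their group, and control 4 exceeded 3 of the malonyl-CoA libraries. The log2 fold change of 0.53 (SE 0.27; edgeR adjusted p = 0.515) was the largest of all members. It was 0.24 after the correction for GC (60.0% in Aars2) and length, and 0.30 without malonyl-CoA 4.

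Cars, the cysteine enzyme on chr7:143557230-143600090, stood at 74.2, 89.5, 105 and 86.9 CPM in controls and 103, 102, 127 and 108 CPM with malonyl-CoA. Control 4 lay within the malonyl-CoA values. The log2 fold change came to 0.31 ± 0.13 (SE) at an edgeR adjusted p of 0.515, and 0.15 after the correction for GC and length. Mitochondrial Cars2 stood at 27.5, 25.8, 26.8 and 18.6 CPM in controls and 29.3, 26.5, 32.8 and 29.4 CPM with malonyl-CoA. Control 5 was the low value: the log2 fold change was 0.26 with an SE of 0.15 (edgeR adjusted p = 0.526) with it and 0.14 without it.

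Vars, the valine enzyme on chr17:35000987-35016322 and the most GC-rich member named here (60.9%), stood at 246, 278, 313 and 165 CPM in controls. With malonyl-CoA it stood at 319, 314, 361 and 297 CPM. Control 4 exceeded malonyl-CoA 5, and control 5 was far below all other libraries. The log2 fold change came to 0.36 ± 0.18 (SE) at an edgeR adjusted p of 0.515, 0.21 without control 5 and 0.06 after the correction for GC and length. Mitochondrial Vars2 stood at 23.96, 22.6, 30.7 and 15.02 CPM in controls and 28.6, 23.5, 37.2 and 23.9 CPM with malonyl-CoA, again with control 5 lowest and the libraries numbered 4 highest of their groups. Its log2 fold change was 0.29 with an SE of 0.23 (edgeR adjusted p = 0.586), 0.04 after the correction, and -0.03 without control 5 and malonyl-CoA 4.

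Dars, the aspartate enzyme on chr1:128363707-128417368, went the other way. It stood at 454, 419.8, 354 and 492 CPM in controls and at 354, 352, 260.4 and 389.9 CPM with malonyl-CoA. Of the controls, control 4 was level with malonyl-CoA 1 and 3 and below malonyl-CoA 5, and the other 3 were above all malonyl-CoA libraries. The means were 429.9 ± 58.6 and 339 ± 55.2 CPM (SD, n = 4), and the log2 fold change came to -0.34 ± 0.15 (SE) at an edgeR adjusted p of 0.515. Dars is GC-poor (41.2%), and after the correction for GC and length the value was -0.19.

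Among the mitochondrial genes with the smallest unadjusted p, Iars2 on chr1:185284726-185329396 stood at 99.9, 87.6, 98.4 and 85.2 CPM in controls and 103, 101, 118 and 98.1 CPM with malonyl-CoA. Controls 1 and 4 reached the level of malonyl-CoA 5, so the groups overlapped. Its log2 fold change was 0.18 with an SE of 0.11 (edgeR adjusted p = 0.535). Cytosolic Iars had 343, 333, 382 and 387 CPM in controls and 387, 403, 400.4 and 386 CPM with malonyl-CoA, and a log2 fold change of 0.13. Iars2 shares 2034 exon bases (22.9%) with Rab3gap2 on the opposite strand, which adds uncertainty if strand was not used in counting.

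Nars2 on chr7:96951505-97064758, which charges asparagine tRNA in mitochondria, stood at 28.3, 26.3, 20.7 and 23.7 CPM in controls and at 21.3, 24.6, 16.4 and 20.04 CPM with malonyl-CoA. Controls 4 and 5 lay among the malonyl-CoA values. The log2 fold change came to -0.26 ± 0.16 (SE) at an edgeR adjusted p of 0.534. Cytosolic Nars, with the highest mean per kilobase, stood at 697, 711, 721 and 653 CPM in controls and 757, 737, 623 and 780.1 CPM with malonyl-CoA, a log2 fold change of 0.06, or 0.10 after the correction for GC and length. Both its highest and its lowest value were in the malonyl-CoA group.

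Eprs, the fused glutamate and proline enzyme on chr1:185363044-185428360 and the lowest cytosolic member per kilobase, varied most. It stood at 116, 165, 315 and 248 CPM in controls and 226, 266, 446 and 209 CPM with malonyl-CoA. The libraries numbered 4 were the highest of each group, and the 8 libraries spanned a 3.85-fold range. The log2 fold change of 0.45 (SE 0.33; edgeR adjusted p = 0.577) was 0.14 without malonyl-CoA 4 and 0.71 without control 4. Lars2, the lowest mitochondrial member, also had library 4 highest in each group, at 10.4, 11.4, 18.4 and 10.2 CPM in controls and 14.2, 14.2, 22.1 and 11.5 CPM with malonyl-CoA, a log2 fold change of 0.30 (SE 0.25), or 0.12 after the correction for GC and length. Rars2, the highest mitochondrial member, stood at 49.5, 46.4, 44.0 and 54.4 CPM in controls and 45.6, 42.4, 43.0 and 47.4 CPM with malonyl-CoA, a log2 fold change of -0.12 that turned to 0.048 after that correction.

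**Figure D4:**
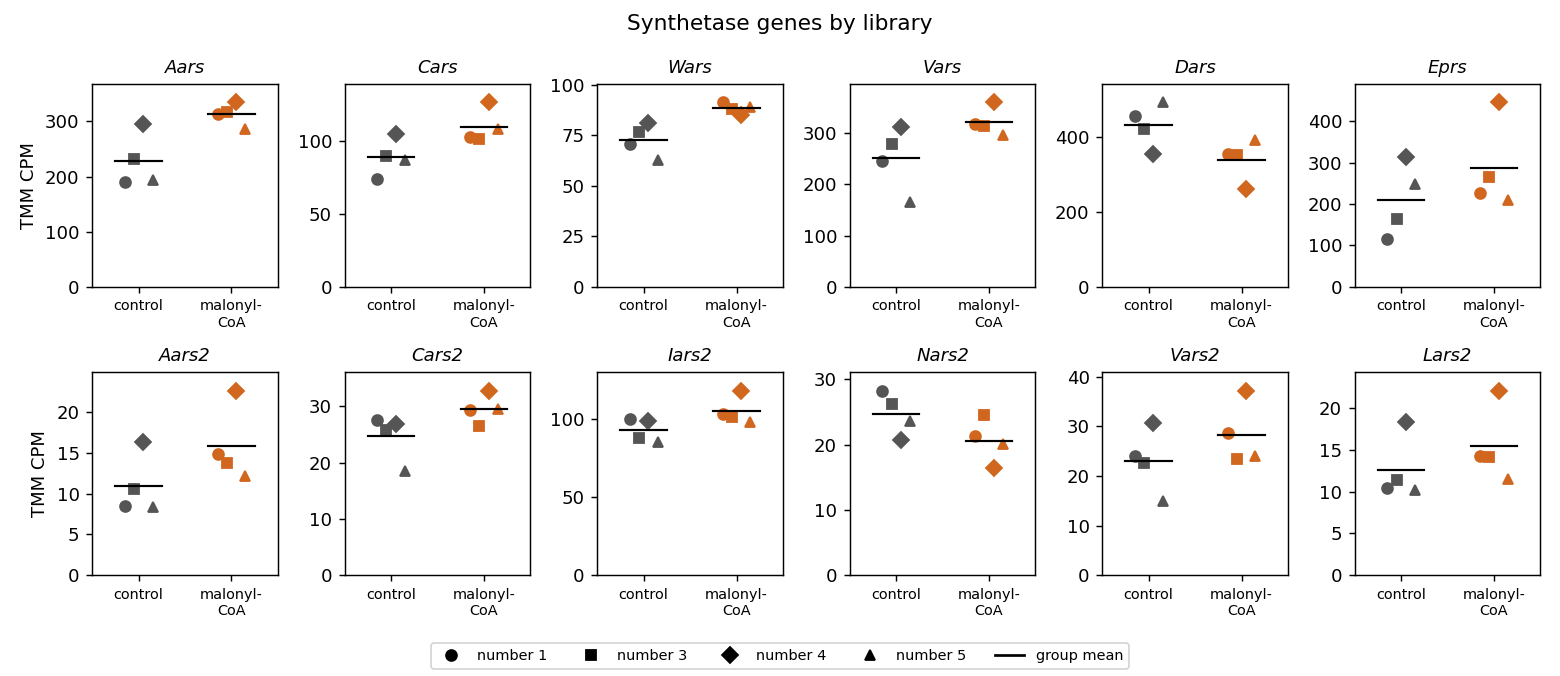
TMM CPM (y axis, from 0) of 12 synthetase genes in the 4 control (grey) and 4 malonyl-CoA (orange) libraries; marker shape is the library number and the line is the group mean. Wars shows no overlap, and control 4 reaches the malonyl-CoA range for Aars, Cars, Vars and Dars, among others. The libraries numbered 4 are the highest of their group for Aars, Cars, Vars, Eprs, Aars2, Vars2 and Lars2.

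The remaining cytosolic genes had smaller differences. Their log2 fold changes ran from -0.18 (Farsb, a subunit of the phenylalanine enzyme) through -0.05 (Qars, glutamine) to 0.18 (Mars, methionine, and Yars, tyrosine). Farsa, the other phenylalanine subunit, had 0.17, or 0.017 without control 5. Hars, Kars, Lars, Gars, Rars, Sars and Tars lay between 0.07 and 0.15. Among the remaining mitochondrial genes, Sars2 (0.25) and Tars2 (0.17) were the highest and Wars2 (-0.17), Rars2 and Fars2 (both -0.12) the lowest. Ears2, Hars2, Mars2, Pars2 and Yars2 lay between -0.10 and 0.03. The correction for GC and length moved 9 of these by more than 1.5 times without a change of sign. It brought Farsb to -0.05, Yars to 0.06, Sars to 0.05, Sars2 to 0.03, Tars2 to 0.09 and Mars2 to -0.04, and took Rars to 0.18 and Qars and Fars2 to -0.12 and -0.21, farther from 0. The cytosolic and mitochondrial enzymes of an amino acid had the same sign for 7 of 13 amino acids.

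By fixed subgroup, the 12 cytosolic genes listed as ATF4 targets all had a positive log2 fold change, from 0.06 (Nars) to 0.46 (Aars), with a median of 0.16. Of the other 8 cytosolic genes 5 were positive, with a median of 0.09. Over the alternatives the medians ran from 0.13 to 0.22 and from 0.030 to 0.13. After the correction for GC and length they lay closer together, at 0.135 for the listed and 0.109 for the other genes. The list is drawn from general knowledge, but it was chosen with earlier results of these data known. Its difference from the other genes was not tested. Summed, the 12 genes stood at 2948, 3184, 3561 and 3153 CPM in controls and at 3602, 3614, 3619 and 3634 CPM with malonyl-CoA. All 4 malonyl-CoA sums lay above all control sums, control 4 being close. The means were 3211 ± 256 and 3617 ± 13.3 CPM (SD, n = 4). With RLE, another set of edgeR scaling factors, the sums also separated, control 4 being at 3581 CPM and malonyl-CoA 4 at 3601 CPM. Scaled by library size alone the groups overlapped, with control 4 at 3672 CPM and malonyl-CoA 5 at 3514 CPM. The separation thus depends on the use of such scaling factors. Sums were not computed after the correction for GC and length. Nars and Gars make up a large part of these sums, but the means of Aars and Eprs differed more between the groups. In controls and with malonyl-CoA the means were 696 and 724 CPM for Nars and 479 and 509 CPM for Gars. They were 228 and 313 CPM for Aars and 211 and 287 CPM for Eprs.

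The other 8 cytosolic genes summed to 1624, 1625, 1627 and 1548 CPM in controls and 1635, 1599, 1521 and 1690.2 CPM with malonyl-CoA. The 16 mitochondrial genes summed to 508, 465, 499.6 and 411 CPM in controls and 503, 467, 539.8 and 474 CPM with malonyl-CoA. Both groups of sums overlapped widely.

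**Figure D5:**
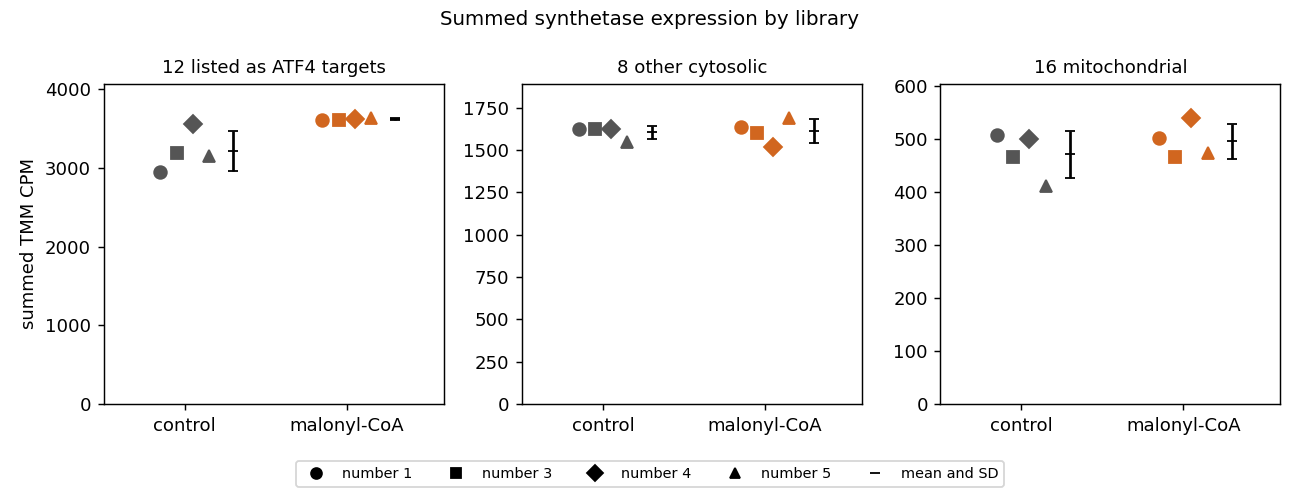
Summed TMM CPM (y axes, from 0) of the 12 cytosolic genes listed as ATF4 targets, the 8 other cytosolic genes and the 16 mitochondrial genes in each library; shapes give the library number, and the bar beside the points is mean and SD (n = 4). Only the first sum separates the groups, with controls from 2948 to 3561 and malonyl-CoA from 3602 to 3634 CPM.

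The 8 synthetases of the multi-synthetase complex differed in sign: 6 were positive and 2 (Dars and Qars) negative, with a median log2 fold change of 0.12 (0.071 to 0.17 over the alternatives). The complex's scaffold genes Aimp1 (-0.16), Eef1e1 (-0.12) and Aimp2 (-0.02) were all negative, but after the correction for GC and length Aimp1 was 0.015 and Eef1e1 0.017. For the split by class, Eprs, the fused glutamate and proline enzyme, was counted in class I only. Of the 19 class I genes 14 were positive, with a median of 0.18, and of the 17 class II genes 11, with a median of 0.11. Over the alternatives these medians ran from 0.080 to 0.22 for class I and from 0.0029 to 0.16 for class II; without control 5 the class II median was 0.029, and without malonyl-CoA 4 the class I median was 0.11.

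Genes that assist tRNA charging, outside the synthetases, had mostly negative values. Of 16 listed, 15 were tested (Aarsd1 was not), 3 had a positive and 12 a negative log2 fold change, with a median of -0.09, and edgeR called 0 of 15 (none at an unadjusted p under 0.05). After the correction for GC and length 6 were positive and 9 negative, with a median of -0.019. Prorsd1, a homolog of the prolyl-tRNA editing domain, had -0.51 (SE 0.24), or -0.23 after that correction. Pstk, a kinase of the selenocysteine pathway, had -0.27, Dtd2, a deacylase of mischarged tRNA, -0.24 (-0.13 corrected), and Sepsecs, the selenocysteine synthase, -0.18. Xpot, the nuclear exporter of tRNA and a listed ATF4 target, had -0.09.

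Of 26 genes of the integrated stress response, 24 had a positive log2 fold change, with a median of 0.21; edgeR called 0 of 26, and 5 were higher at an unadjusted p under 0.05, against 5.43% of all genes. After the correction for GC and length 24 were positive, with a median of 0.13. Cebpb, a transcription factor that pairs with ATF4, had 0.92 (SE 0.23; edgeR adjusted p = 0.352), and was the member of this list that DESeq2 called (adjusted p = 0.0443, against 0.591% of all genes called); its corrected value was 0.43. Ppp1r15a, the phosphatase subunit that reverses eIF2 alpha phosphorylation, had 0.64 and Atf5 0.35 (0.091 corrected). Atf4 itself, whose control is largely translational, had 0.15 (SE 0.11), or 0.054 corrected. The ATF4 targets Trib3, a pseudokinase, and Chac1, a glutathione-degrading enzyme, had 0.42 and 0.19 (0.29 and 0.12 corrected), and Asns, asparagine synthetase, had -0.10 (-0.0088 corrected).

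Ddit3, the stress transcription factor CHOP, lies tail to tail with Mars on chromosome 10. Ddit3 stood at 7.81, 10.003, 9.74 and 8.73 CPM in controls and 11.4, 13.3, 19.8 and 11.4 CPM with malonyl-CoA, without overlap, and had a log2 fold change of 0.63 (SE 0.20). Mars stood at 216, 214, 215 and 152 CPM in controls and 252, 214, 220.3 and 217 CPM with malonyl-CoA, with overlap, and had 0.18, or 0.068 without control 5. The genes share 68 exon bases on opposite strands (1.99% of the Mars exons), and Mars is far more abundant. Whether Mars reads enter the Ddit3 counts depends on a strand setting not given in the sources used here.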

How the data were processed

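RNA of 8 cultures was sequenced; per the labels' protocols, libraries came from 350 ng of RNA and a kit that keeps strand. The deposited values are whole-number read counts per gene. The submitters' processing notes name cutadapt 1.8, STAR 2.5.2b, HTSeq 0.6.1 and GRCm38; the annotation release and how strand was set in counting, not given in the sources used here, remain unknown. Summary lines that name no gene stayed out of library sizes: no-feature reads were 1.11 to 2.94% and reads not uniquely aligned 38.2 to 51.1%, so genes with near-identical copies are uncertain. Identifiers were matched to GENCODE M21 names and exons (48349 of 48709 matched), and promoters were taken from RefSeq.

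Genes with enough counts in at least 4 libraries (edgeR filterByExpr, minimum count 10, minimum total 15) were kept. Malonyl-CoA was tested against control with edgeR 4.0.16 in R 4.3.3 (TMM, quasi-likelihood test, no covariate, Benjamini-Hochberg adjustment over 12696 genes, threshold 0.05), a fit tested on simulated data. Alternatives used DESeq2 1.42.0, limma 3.58.1, other scalings and filters, a GC and length correction, a replicate block and left-out libraries. Every pair of libraries differed by more than counting noise. The precision of member counts is set by the spread between libraries, the lowest being 149.

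The members and all gene lists were chosen with earlier results of these data known. Values in every library are given for the 5 members of each compartment with the smallest unadjusted p, for those without overlap, for the highest and lowest per kilobase, and beside them, where reported here, the enzyme of the same amino acid. Mars is printed beside Ddit3, and Lars2 beside Eprs under the level rule. Of the assisting and stress genes, the 4 with the smallest unadjusted p are named, and always Atf4, Ddit3, Trib3, Chac1, Asns and Xpot. Other members and subgroups are given by fold change, range and count. The planned comparison of protein sequences was not made, as proteins were not used here.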

Additional observations from a re-analysis of the deposited data

Results flagged for a closer look

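In 4 of 72 groups of 4 libraries, each being a synthetase gene in a condition, a library lay far from the others by Dixon's test at 95%; chance gives about 1 in 20. Control 5 was involved for the cytosolic genes Farsb, at 181.5 CPM against 148 to 152 CPM in the other controls, and Mars, at 152 CPM against 214 to 216 CPM. Control 4 was involved for mitochondrial Lars2, at 18.4 CPM against 10.2 to 11.4 CPM. Malonyl-CoA 4 was involved for mitochondrial Sars2, at 20.1 CPM against 13.9 to 14.2 CPM in the other malonyl-CoA libraries. Control 5 and malonyl-CoA 4 are libraries that also stood apart over all genes, by GC trend and by principal component. The part of that in these values was not tested.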

How the results depend on the processing

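No member was called under any of the 23 alternatives, the quasi-likelihood fit of earlier edgeR versions having been added after the data were seen. The number of all genes called was 0 and became 1 without the low-count filter, 82 with DESeq2, 172 with a replicate block and 11 with the block plus GC and length correction. With the block, the lowest adjusted p of a member was 0.0609 (edgeR, Aars and Dars). Deviations of libraries with the same number correlated at 0.43, 0.43, 0.75 and 0.052, and those with unlike numbers at -0.61 to 0.42. These values do not settle whether libraries of the same number belong together. The numbers were not taken as pairing in the main fit because the labels do not say what they stand for. DESeq2 called 1 stress gene, Cebpb, at 0.92.

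Of 36 members 24 kept their sign throughout, 17 cytosolic and 7 mitochondrial. The medians ranged from 0.11 to 0.19 for cytosolic and from -0.052 to 0.068 for mitochondrial genes. All 12 genes listed as ATF4 targets were positive except Nars without replicate 5. Signs turned when libraries were left out, with these ranges: Nars -0.0024 to 0.13, Qars -0.18 to 0.031, Ears2 -0.14 to 0.16, Hars2 -0.097 to 0.022, Mars2 -0.15 to 0.052, Pars2 -0.22 to 0.044, Yars2 -0.059 to 0.081, Chac1 -0.0085 to 0.30 and Asns -0.19 to 0.028. Without control 5 and malonyl-CoA 4 together, Farsa was -0.038, Lars2 -0.015, Sars2 -0.056, Vars2 -0.027, Ears2 -0.20, Yars2 0.066 and Asns 0.059. With GC and length correction, without and with the block, Ears2 was -0.020 and -0.026, Hars2 0.018 and 0.017, Rars2 0.048 and 0.046 and Yars2 0.11 in both. Scaled by library size alone, Hars2 was 0.023 and Yars2 0.041. The cause of these turns was not tested. The depth of 149 counts or more limits the levels less than the spread between libraries does.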
